A study of Mus musculus with 144 samples.

Results

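Transcripts of 7 genes of oxidant defence and iron storage were followed in single retinal microglia of mice given vehicle or ripasudil. The genes are Clic1, Txn1, Prdx1, Gpx1, Sod1, Fth1 and Ftl1, 7 of the 55364 genes in the deposited table. They were selected by name, and the selection used measured values. Clic1 and Txn1 were taken up because they stood among the lowest genes of low-dose against PBS cells in an earlier look at the same data, and the other 5 were added for their place in the same pathways. The dose differences below are therefore descriptions and not evidence for an effect.

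Each library was 1 cell, taken by cell sorting from retinas of Iba1-EGFP mice, whose microglia and other cells positive for Iba1 fluoresce green. All groups share that transgene, the tissue and the sort. The PBS group came from mice of 10 to 14 weeks that were given the vehicle, the low-dose group from mice of 14 weeks given ripasudil at 1 mg/kg, and the high-dose group from mice of 12 weeks given 10 mg/kg. Ripasudil is a small-molecule kinase inhibitor. The 48 cells of a group were spread as 16 to a plate over 3 plates. Wells were filled group by group on each of them, so that dose, age and well position cannot be told apart. The labels named no animal and did not state whether the eyes had been injured. Each group was therefore treated as 1 sample, no difference had a replicate check, no test across cells was made, and SDs and intervals describe cells or counting error only.

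Microglia make oxidants with the NADPH oxidase and clear them with layered thiol systems. Thioredoxin (Txn1) reduces disulfides in target proteins and recycles peroxiredoxins such as Prdx1, which break down hydrogen peroxide, while Gpx1 does the same at the expense of glutathione and Sod1 turns superoxide into hydrogen peroxide. Ferritin, a shell of heavy (Fth1) and light (Ftl1) chains, stores iron in a form that cannot drive radical chemistry, and the heavy chain is the ferroxidase. Clic1 is a protein of glutathione transferase fold that can move between the cytosol and membranes with the redox state of the cell, and it has been linked to the oxidant response of microglia.

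Ferritin messenger RNAs carry an iron responsive element, a hairpin bound by the iron regulatory proteins that hold back translation when iron is scarce. The hairpins of the 2 ferritin members are shown because they are the sequence feature that sets this pair apart from the other 5 genes, and because they act on translation, which RNA levels do not report. They were found in GENCODE M21 transcripts on GRCm38 and are given 5′ to 3′ on the gene strand, with the loop motif CAGTGN in capitals. That of Fth1 lies at chr19:9982732-9982760 on the plus strand and occurs in 4 of its 5 coding transcripts. That of Ftl1 lies at chr7:45459779-45459807 on the minus strand and occurs in 2 of 3. No coding transcript of the other members held such a hairpin by the same search.
Fth1 iron responsive element: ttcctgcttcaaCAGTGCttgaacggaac
Ftl1 iron responsive element: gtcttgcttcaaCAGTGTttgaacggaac

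The promoters of Clic1 and Txn1, the members with the greatest differences, and of Prdx1, the peroxiredoxin that thioredoxin recycles, are shown so that they can be compared. Each is the 250 bases before the RefSeq start on GRCm38.p6, 5′ to 3′ on the gene strand, with motif matches in capitals. Both strands were searched in windows that also held the first 50 bases of the gene. The first motif was the core of the antioxidant response element read by Nrf2, TGACNNNGC. The second, TGANTCA, is the site of AP-1, a factor made of Fos and Jun proteins. The last was the TATA box, searched as TATAAA. Clic1 lies at chr17:35049993-35050242 on the plus strand, Txn1 at chr4:57956412-57956661 on the minus strand and Prdx1 at chr4:116685349-116685598 on the plus strand.
Clic1 promoter: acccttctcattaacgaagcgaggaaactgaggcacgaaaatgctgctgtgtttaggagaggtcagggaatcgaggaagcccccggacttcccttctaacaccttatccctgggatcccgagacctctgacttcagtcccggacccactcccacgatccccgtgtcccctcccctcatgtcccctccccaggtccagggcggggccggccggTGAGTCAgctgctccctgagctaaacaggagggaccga
Txn1 promoter: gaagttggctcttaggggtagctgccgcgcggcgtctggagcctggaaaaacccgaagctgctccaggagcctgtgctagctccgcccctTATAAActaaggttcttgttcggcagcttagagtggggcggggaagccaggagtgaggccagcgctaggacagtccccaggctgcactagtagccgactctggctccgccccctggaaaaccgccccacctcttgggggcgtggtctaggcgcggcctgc
Prdx1 promoter: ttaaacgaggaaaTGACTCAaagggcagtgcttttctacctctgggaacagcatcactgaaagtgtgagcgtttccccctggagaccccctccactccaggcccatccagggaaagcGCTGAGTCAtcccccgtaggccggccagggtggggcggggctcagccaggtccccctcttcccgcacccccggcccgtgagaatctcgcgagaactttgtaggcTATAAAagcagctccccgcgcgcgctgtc

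The Clic1 promoter held 1 AP-1 match, which begins at -38 counted from the RefSeq start, and the Txn1 promoter held 1 TATA box at -160. The Prdx1 promoter held AP-1 matches at -237 and -131 and a TATA box at -29. It also held, on the opposite strand, a core of the antioxidant response element that begins at -133 on the gene strand and overlaps the nearer AP-1 match. Of the other members, Sod1 also held a core (on the opposite strand, at -56) and Gpx1 held none of the 3 motifs. Of 32851 mouse promoter windows of the same length, 12.4% held the antioxidant core, 7.81% the AP-1 site and 13.6% the TATA box, so the matches are common words and describe letters, not binding. The promoters of Clic1, Txn1 and Prdx1 were 60.8%, 64.0% and 61.6% G and C, against a median of 52.4% over all promoters.

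In the deposited table the genes are Clic1 (ENSMUSG00000007041, chromosome 17, 35049966 to 35058749, plus strand), Txn1 (ENSMUSG00000028367, chromosome 4, 57943373 to 57956411, minus strand) and Prdx1 (ENSMUSG00000028691, chromosome 4, 116685544 to 116700822, plus strand). Gpx1 (ENSMUSG00000063856) lies on chromosome 9 at 108338903 to 108340343 and Sod1 (ENSMUSG00000022982) on chromosome 16 at 90220754 to 90226329, both on the plus strand. Fth1 (ENSMUSG00000024661) lies on chromosome 19 at 9980598 to 9985098 on the plus strand and Ftl1 (ENSMUSG00000050708) on chromosome 7 at 45457944 to 45459884 on the minus strand. Among gene ontology terms in the table, 6 of the 7 (all but Ftl1) carried "mitochondrion" and 5 (Txn1, Prdx1, Gpx1, Sod1 and Fth1) carried "oxidation-reduction process".

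A gene was called detected in a cell from an FPKM of 1 upward, and cells in which 1000 genes or more were detected were kept, 140 of 144. They were 46 PBS, 47 low-dose and 47 high-dose cells. Those just outside that limit had 876, 896, 906 and 939 detected genes and those just inside 1006, 1144, 1177 and 1209. Detected genes had a median of 3143 with PBS, 2418 with the low and 2264 with the high dose. Assigned reads numbered 30204 to 4668732 per cell over all cells, with a median of 1614850, and no pair of cells correlated above 0.679. Of the microglial markers, Csf1r was detected in all 140 kept cells and at least 3 of 10 in each cell. Tmem119 was found in 40, 42 and 42 and P2ry12 in 39, 36 and 34 of the PBS, low-dose and high-dose cells, so these more specific markers were not seen in every cell. At least 3 of 10 rod photoreceptor markers were found in 6 PBS cells, 7 low-dose cells and 11 high-dose cells, and over all kept cells of a group their summed level was 0 to 291 FPKM with PBS, 0 to 5187 with the low and 0 to 17776 with the high dose. At least 3 of 7 border macrophage markers were found in 4, 4 and 3 cells and 3 of 7 Mueller glia markers in 6, 3 and 5. At least 3 of 8 neutrophil markers were found in 10, 8 and 8 cells, although Camp was not detected in any group and Ly6g and Ngp only at the low dose. The highest summed neutrophil level in a cell exceeded that of rods, at 82911 FPKM with PBS, 126781 with the low and 82013 with the high dose. For Mueller glia markers the highest sums were 26510, 28511 and 28840 FPKM. FPKM scales the reads of a gene to its length and to the reads of the cell, so a level below is a share of a cell's RNA and says nothing of RNA per cell.

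The 7 genes differed widely in abundance, and all lay in the upper part of the range of the 55364 genes. On the log2(FPKM + 1) scale, the mean levels over the 140 cells were 10.62 ± 1.89 (SD over cells) for Ftl1, 10.62 ± 1.64 for Fth1, 7.78 ± 3.36 for Gpx1, 5.83 ± 3.55 for Prdx1, 5.57 ± 3.62 for Clic1, 3.57 ± 3.76 for Txn1 and 1.68 ± 2.35 for Sod1. Each neighbouring pair in this order differed by less than the larger SD of its members. By mean FPKM over cells, Ftl1 and Fth1 ranked 23 and 29 among all genes, Gpx1 74, Prdx1 198, Clic1 227, Txn1 350 and Sod1 2843. The table divides by the joint length of all annotated exons, which exceeds the principal messenger RNA 6.19 times for Sod1 (3970 against 641 bases), 3.73 times for Fth1 and 3.47 times for Prdx1, but 1.00 times for Txn1 and 1.23 times for Clic1. Scaled to the principal transcript, Sod1 averaged 151 FPKM with PBS, 169 with the low and 66.2 with the high dose. Fth1 then averaged 8152, 10329 and 9777 FPKM. Ftl1, with a joint length 1.38 times its principal transcript, averaged 3246, 4783 and 3488 FPKM, below Fth1 in each group. The scaling is the same in each group and leaves ratios of mean FPKM of 1 gene between groups as they are. Differences of log2(FPKM + 1) and shares at an FPKM of 1 do depend on it. For Sod1 the difference of high-dose minus PBS cells was -1.28, but -1.93 with a pseudocount of 0.1 and -0.54 with 10. Above 0 FPKM, Sod1 was found in 31 of 46 PBS, 36 of 47 low-dose and 27 of 47 high-dose cells.

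**Figure D1:**
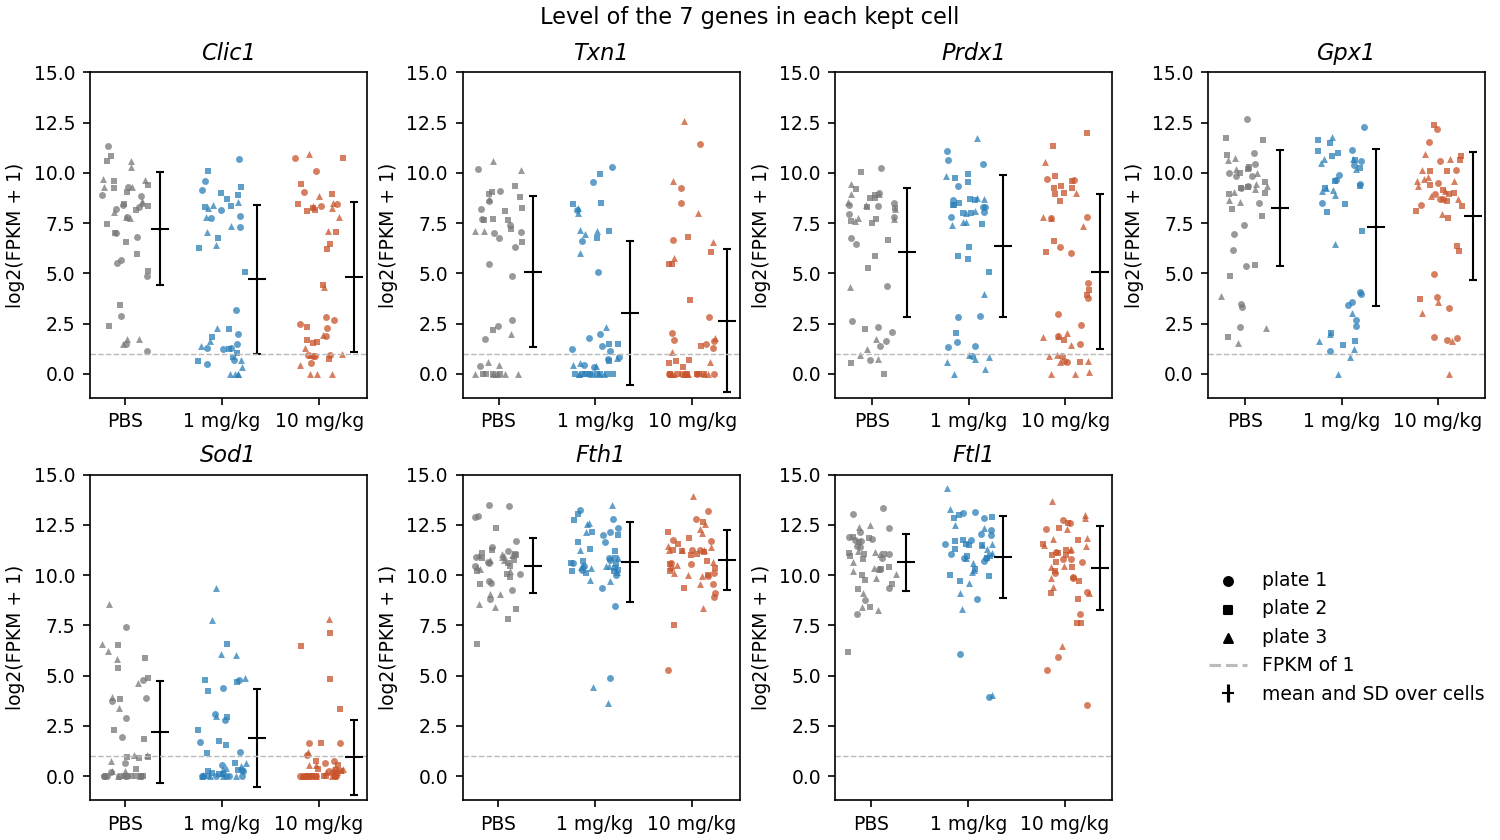
Level of each gene in each of the 140 kept cells, as log2(FPKM + 1), by group (PBS, 1 mg/kg and 10 mg/kg ripasudil) and plate (symbol), with the mean and the SD over cells. The ferritin genes are above the dashed line (an FPKM of 1) in every cell, while Clic1 and Txn1 split into a high and a low band whose lower band is fuller in dosed cells. Prdx1 and Gpx1 also have cells at both high and low levels, so such a split is not particular to Clic1 and Txn1.

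Clic1, the redox-sensitive channel protein, was detected in every PBS cell and was missing or near 0 in many dosed cells. Its lowest, median and highest FPKM were 1.20, 291 and 2574 in PBS cells, 0, 32.7 and 1655 in low-dose cells, and 0, 19.3 and 1951 in high-dose cells. It was detected in 46 of 46 PBS cells (100%, exact Clopper-Pearson 95% interval 92.3 to 100), 37 of 47 low-dose cells (78.7%, 64.3 to 89.3) and 35 of 47 high-dose cells (74.5%, 59.7 to 86.1). The ranges of the groups overlapped over nearly their whole length, and what differed was how many cells sat low: 100 FPKM or more was reached in 32 PBS cells, in 21 cells at the low dose and in 20 high-dose cells. Among the cells at zero FPKM were 4 low-dose and 3 high-dose cells and no PBS cell, so most undetected cells held a few reads rather than none.

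Mean log2(FPKM + 1) of Clic1 was 4.70 ± 3.70 (SD, 47 cells) in low-dose cells, against 7.23 ± 2.83 (SD, 46 cells) in PBS cells. The difference was -2.53, with -1.84, -2.07 and -3.70 within plates 1, 2 and 3. In high-dose cells the mean was 4.83 ± 3.74 (SD, 47 cells), a difference from the same PBS cells of -2.40, with -2.45, -1.72 and -3.10 by plate. Both comparisons use the same PBS cells and so are not independent of each other. Clic1 was lower in dosed cells on each plate at both doses. The pooled differences were smaller than the SD between cells of either group, while on plate 3 the low-dose difference exceeded the SD there (3.67 in low-dose and 3.26 in PBS cells). The doses themselves differed by 0.13 (high minus low). The comparison covered 4806 genes, those detected in 25% or more of the cells of any group. Among them Clic1 had the lowest difference of low-dose against PBS cells and ranked 4 from the lowest for the high dose. The low-dose rank restates how Clic1 was picked, and the high-dose rank rests on the same PBS cells, so nothing is read from either. The ratio of mean FPKM, which gives weight to the cells that express the gene strongly, was 0.460 for low-dose over PBS cells and 0.594 for high-dose over PBS cells.

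Txn1 was lower in dosed cells too, on 2 of the 3 plates by a wide margin. Its lowest, median and highest FPKM were 0, 118 and 1523 in PBS cells, 0, 1.21 and 1247 in low-dose cells, and 0, 0.587 and 6176 in high-dose cells. It was detected in 33 of 46 PBS cells (71.7%, 56.5 to 84.0), 24 of 47 low-dose cells (51.1%, 36.1 to 65.9) and 23 of 47 high-dose cells (48.9%, 34.1 to 63.9). The groups overlapped from 0 upward, and an FPKM of 100 was reached in 24 PBS cells, in 13 cells at the low dose and in 7 high-dose cells.

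Mean log2(FPKM + 1) of Txn1 was 3.02 ± 3.57 in low-dose cells, against 5.08 ± 3.77 in PBS cells. The difference was -2.07, with -2.69, -2.94 and -0.34 on plates 1 to 3. In high-dose cells it was 2.63 ± 3.56, a difference from PBS cells of -2.45, with -2.88, -3.77 and -0.46 by plate. On plate 3 the PBS cells themselves were low, with Txn1 detected in 6 of 14, against 15 of 16 PBS cells on plate 1 and 12 of 16 on plate 2. High-dose cells differed from low-dose cells by -0.39. The direction depended on the scale at the high dose: mean FPKM was 243 in high-dose and 221 in PBS cells, a ratio of 1.10, and 3 high-dose cells held 84.6% of the group's summed Txn1 FPKM. In low-dose over PBS cells the ratio of mean FPKM was 0.517.

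**Figure D2:**
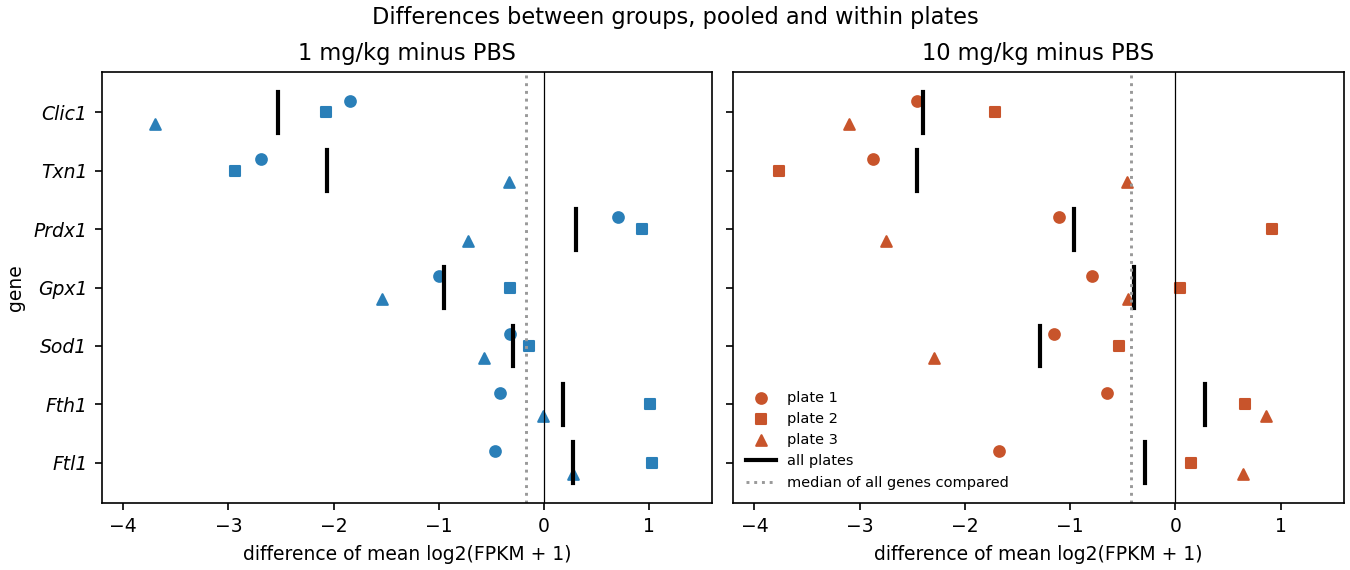
Difference of mean log2(FPKM + 1) for each gene, low-dose minus PBS cells on the left and high-dose minus PBS cells on the right, over all plates (black bar) and within each plate (symbols), with the median of the 4806 compared genes as a dotted line. Clic1 lies left of that line on each plate at both doses, from -3.70 to -1.72, Txn1 lies near it on plate 3, and Prdx1, Fth1 and Ftl1 fall on both sides of 0.

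Clic1 and Txn1 were jointly detected in 33 of 46 PBS, 22 of 47 low-dose and 19 of 47 high-dose cells. Neither was detected in 0 PBS, 8 low-dose and 8 high-dose cells. Clic1 without Txn1 was the more frequent of the single patterns, in 13, 15 and 16 cells, against 0, 2 and 4 cells with Txn1 alone. Over the 140 cells their levels correlated at 0.21 (Pearson, log2 scale) and at 0.00 once the means of each group on each plate and a linear term in detected genes were removed. That value covered -0.22 within PBS, 0.41 within low-dose and -0.18 within high-dose cells, with both signs over 46 or 47 cells each.

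Detected genes moved with both. Clic1 level correlated with log10 detected genes at 0.43, Txn1 and Prdx1 at 0.40, Fth1 at -0.20, over 140 cells that share their libraries' depth. Among cells with 1000 to under 2000 detected genes, Clic1 was found in 8 of 8 PBS, 10 of 19 low-dose and 11 of 21 high-dose cells. With 2000 to under 3000 it was found in 15 of 15, 9 of 10 and 12 of 14, and with 3000 or more in all 23, 18 and 12 cells. Most cells without Clic1 were among the cells with fewest detected genes, and PBS held only 8 of those. Among cells from 2000 detected genes upward, the Clic1 difference was -0.65 for low-dose and -0.86 for high-dose against PBS cells. Adjusted linearly for detected genes it was -2.05 and -1.95, and in a common range of detected genes (1716 to 4957) it was -1.60 and -2.76.

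The Txn1 difference was also smaller from 2000 detected genes upward than over all kept cells. There it was -1.21 for low-dose and -2.09 for high-dose against PBS cells, and adjusted for detected genes -1.56 and -1.64. At the high dose it did not shrink steadily with detected genes. Mean log2(FPKM + 1) was 1.68 in high-dose and 3.16 in PBS cells with 1000 to under 2000 detected genes. With 2000 to under 3000 it was 2.11 and 5.19. With 1000 to under 2000 detected genes, Txn1 was found in 4 of 8 PBS, 6 of 19 low-dose and 8 of 21 high-dose cells. It was found in 11 of 15, 6 of 10 and 6 of 14 with 2000 to under 3000, and in 18 of 23, 12 of 18 and 9 of 12 with 3000 or more. Its share was lower in dosed than in PBS cells in each stratum. At 3000 or more detected genes the mean log2(FPKM + 1) of Txn1 was 4.52 with the low and 4.90 with the high dose, against 5.68 with PBS, and that of Clic1 was 7.34 and 6.63, against 7.71.

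**Figure D3:**
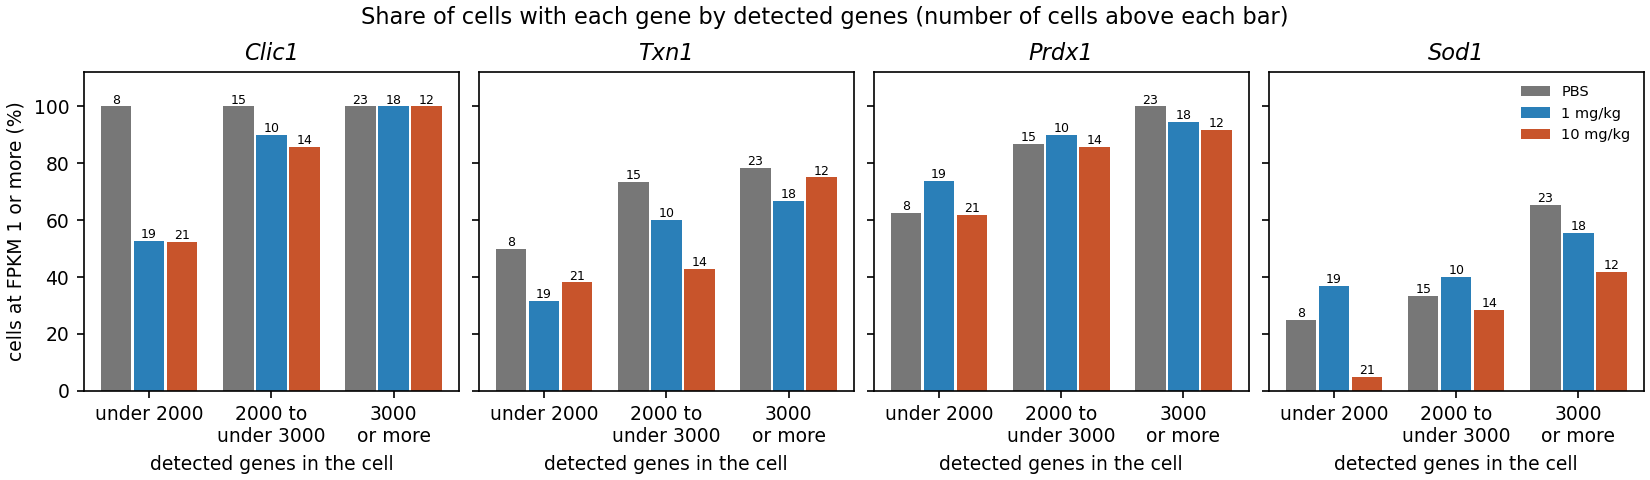
Share of cells (percent) at an FPKM of 1 or more for Clic1, Txn1, Prdx1 and Sod1, by the number of detected genes in the cell and by group, with the number of cells above each bar. Clic1 reached 100% in each group at 3000 or more detected genes and 100%, 52.6% and 52.4% in PBS, low-dose and high-dose cells at 1000 to under 2000.

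Reads per cell gave a further check of depth. With each cell thinned to 300000 reads (9 shallower cells were dropped, 5 of them PBS, 1 low-dose and 3 high-dose), Clic1 had at least 1 read in 40 of 41 PBS cells (97.6%), 34 of 46 low-dose cells (73.9%) and 31 of 44 high-dose cells (70.5%). Txn1 had a read in 73.2%, 43.5% and 34.1% of these cells. Before thinning, the same cells held a Clic1 read in 100%, 91.3% and 93.2% and a Txn1 read in 80.5%, 69.6% and 61.4%, so the order of the 2 doses for Clic1 differed while PBS was highest both ways. Without the cells that held 3 or more rod markers, the Clic1 difference was -2.81 for low-dose and -2.43 for high-dose against PBS cells and that of Txn1 -2.58 and -2.63, as large as with them.

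Prdx1, the peroxiredoxin recycled by thioredoxin, was detected in most cells, and its differences took both signs at the doses. Its lowest, median and highest FPKM were 0, 201 and 1214 in PBS cells, 0, 253 and 3419 in low-dose cells, and 0, 21.8 and 3975 in high-dose cells. It was detected in 41 of 46, 40 of 47 and 36 of 47 cells. The difference of low-dose minus PBS cells was 0.30 (0.70, 0.93 and -0.73 by plate), that of high-dose minus PBS cells -0.97 (-1.11, 0.92 and -2.75) and that of high-dose minus low-dose cells -1.27 (-1.81, -0.01 and -2.02). The high-dose median stood apart from both others, while the plates of that group ranged in median from 2.10 FPKM on plate 3 to 507 FPKM on plate 2. Without plate 2 the difference of high-dose minus PBS cells was -1.93. The direction depended on the scale at the high dose. Mean FPKM was 352 in high-dose and 242 in PBS cells, a ratio of 1.46, with 0.699, 2.69 and 0.686 by plate. The ratio was 1.67 for low-dose over PBS cells and 0.873 for high-dose over low-dose cells.

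Gpx1, the main cytosolic glutathione peroxidase, was detected in 46 of 46 PBS, 45 of 47 low-dose and 46 of 47 high-dose cells. Its lowest, median and highest FPKM were 1.90, 608 and 6588 in PBS cells, 0, 572 and 5042 in low-dose cells, and 0, 484 and 5347 in high-dose cells. Mean log2(FPKM + 1) differed by -0.95 for low-dose minus PBS cells (-0.99, -0.32 and -1.54 by plate) and by -0.39 for high-dose minus PBS cells (-0.79, 0.04 and -0.45). The medians were close while the low tails were not: the lower quartile was 133 FPKM with PBS, 8.36 with the low and 75.5 with the high dose. The ratio of mean FPKM was 1.03 for low-dose over PBS cells, so the direction at the low dose rested on cells with little Gpx1.

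Sod1, the cytosolic superoxide dismutase, was the member seen in fewest cells at an FPKM of 1 or more. That cut is stricter for Sod1, whose joint exon length exceeds the principal messenger RNA 6.19 times. Above 0 FPKM, Txn1 was seen in 97 and Sod1 in 94 of 140 cells. The lowest, median and highest FPKM of Sod1 were 0, 0.929 and 375 in PBS cells, 0, 0.485 and 655 in low-dose cells, and 0, 0.190 and 228 in high-dose cells. It was detected in 22 of 46 PBS cells (47.8%, 32.9 to 63.1), 21 of 47 low-dose cells (44.7%, 30.2 to 59.9) and 10 of 47 high-dose cells (21.3%, 10.7 to 35.7). The medians were all under the detection limit of 1 FPKM and all 3 ranges started at 0. The share was lowest in high-dose cells, and its interval overlapped those of the other groups. The difference was -0.30 for low-dose minus PBS cells, and -1.28 for high-dose minus PBS cells with -1.16, -0.53 and -2.29 by plate. After thinning to 300000 reads a Sod1 read was present in 53.7% of PBS, 54.3% of low-dose and 31.8% of high-dose cells, and before it in 73.2%, 76.1% and 61.4% of the same cells. With 3000 or more detected genes, Sod1 was found in 15 of 23, 10 of 18 and 5 of 12 cells.

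The ferritin genes were detected in every cell and reached 100 FPKM in most, Fth1 in 135 and Ftl1 in 132 of 140, and their group means differed by less than the SD between cells. Fth1 had a lowest, median and highest FPKM of 93.4, 1591 and 11342 in PBS cells, 11.3, 1575 and 11630 in low-dose cells, and 37.96, 2026 and 15591 in high-dose cells. Ftl1 had 70.6, 1906 and 10155 FPKM in PBS cells, 14.4, 2488 and 20558 in low-dose cells, and 10.7, 1792 and 12924 in high-dose cells. The groups overlapped almost completely. For Fth1 the difference from PBS cells was 0.18 at the low dose and 0.29 in high-dose cells, and for Ftl1 0.27 and -0.29, with both signs among the plates in each case (Fth1 -0.42, 1.00 and -0.01 at the low dose, Ftl1 -1.67, 0.15 and 0.65 at the high dose). Together they took a median of 0.844% of a cell's assigned reads with PBS, 0.883% with the low and 0.910% with the high dose.

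The balance of light to heavy chain covered a wider range of values in the dosed groups. The log2 ratio of Ftl1 to Fth1 in deposited FPKM had a median of 0.10 with PBS, 0.37 with the low and 0.01 with the high dose. The joint exon lengths behind it exceed the principal transcript 3.73 times for Fth1 and 1.38 times for Ftl1. The ratio therefore does not say which chain had more transcripts. It ranged from -5.38 to 3.54 in PBS cells, from -8.41 to 8.82 in low-dose cells and from -8.18 to 7.45 in high-dose cells. At the low dose each end of the range was a single cell far from the rest. Over all cells the 2 transcripts correlated at 0.37 after removal of group-by-plate means and detected genes (0.41 before), the highest value among the 21 pairs of members. Within groups it was 0.60 with PBS, 0.44 with the low and 0.14 with the high dose, values that a few cells with very little of 1 chain can move.

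**Figure D4:**
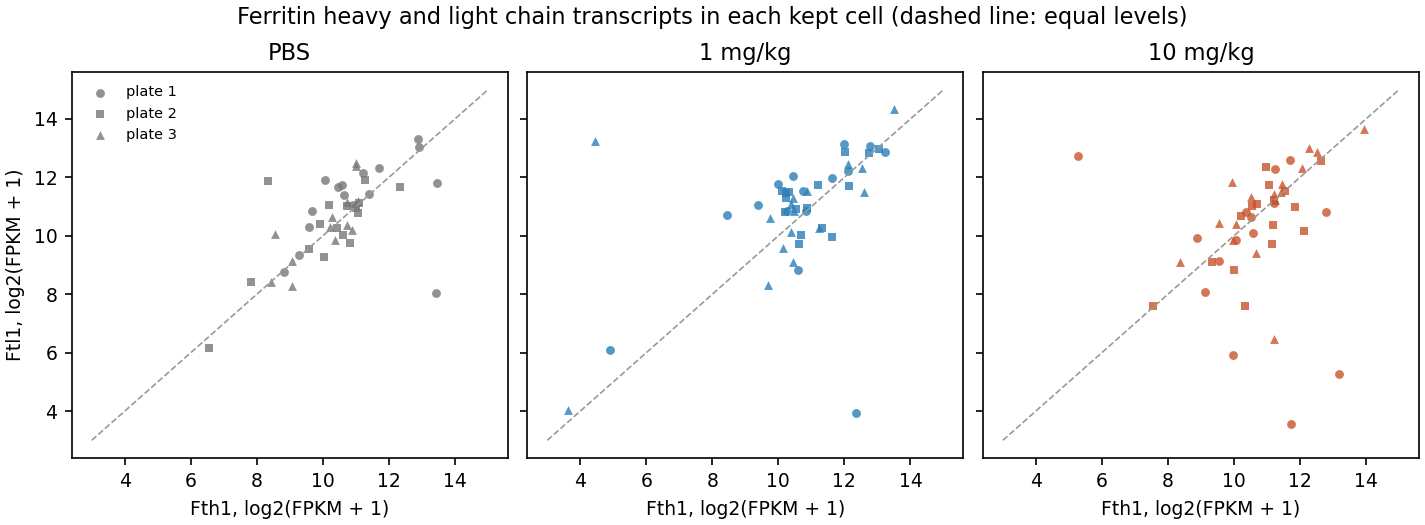
Ftl1 against Fth1 level, both as log2(FPKM + 1), in each kept PBS, 1 mg/kg and 10 mg/kg cell, with the plate as symbol. The dashed line marks equal deposited FPKM, which is not equal numbers of transcripts. PBS cells and low-dose cells each follow the line except for 1 cell far below and 1 above it, which lie further off at the low dose. The high-dose group holds more cells with little of 1 chain and much of the other.

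Counting limits bear most on Ftl1. Ftl1 shares its exons with Gm10252 and Gm22133, and 22 rows of the table match its transcript at 90% identity or more and hold 39.004% of the reads summed over Ftl1 and these copies. Only 2.14% of its values above 0 were whole reads, within 0.01 of a read, against 86.5% for Clic1, 85.5% for Gpx1 and 81.4% for Txn1. With the copies added to each member, an alternative chosen after the data were seen, the Ftl1 differences were 0.26 for low-dose and -0.28 for high-dose against PBS cells, and those of Clic1, which had no copy, were as before. Prdx1 had 3 such copies with 2.64% of the reads, Txn1, Sod1 and Fth1 1 each and Gpx1 none.

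The other pairs of members were weakly related. After the same removal, Clic1 and Gpx1 correlated at 0.29, Txn1 and Gpx1 at 0.22, Prdx1 and Ftl1 at 0.22 and Txn1 and Prdx1 at 0.15 over 140 cells that share plates and depth. All 7 genes were detected together in 15 of 46 PBS, 14 of 47 low-dose and 5 of 47 high-dose cells, and 4 or fewer in 3, 9 and 13 cells. These counts were not adjusted for detected genes, whose medians were 3143, 2418 and 2264 in the same groups.

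**Figure D5:**
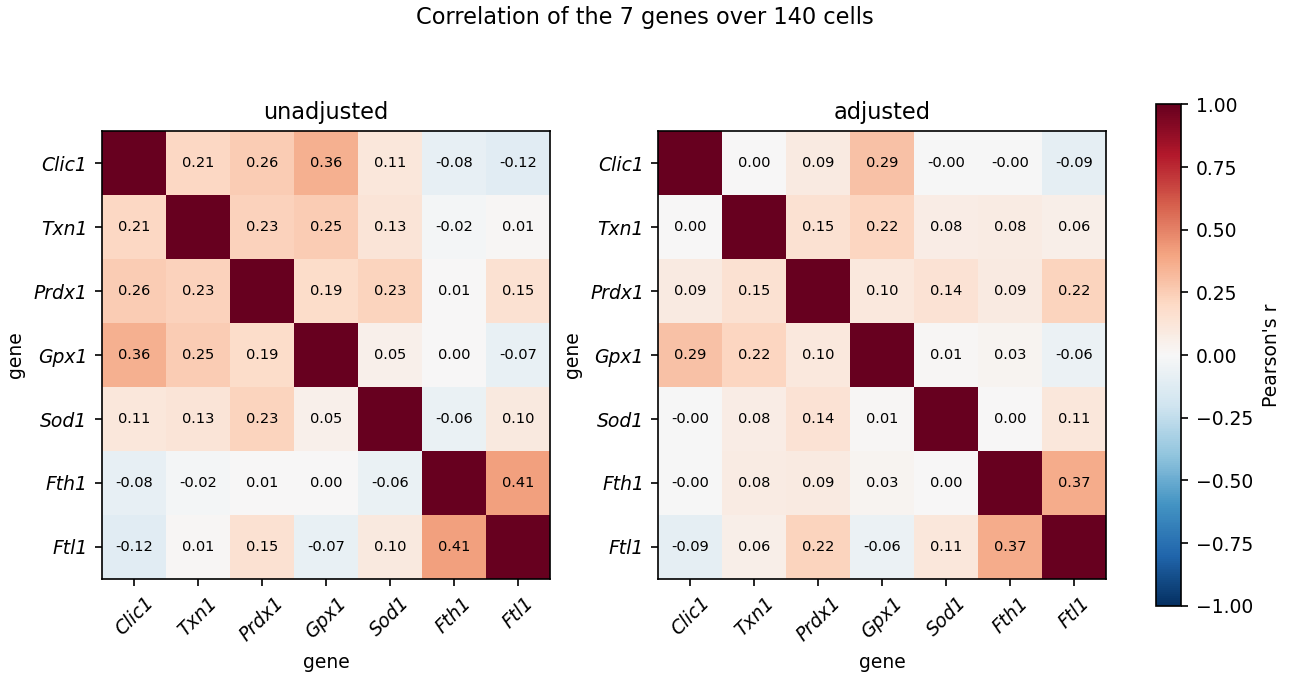
Pearson correlation of log2(FPKM + 1) between the 7 genes over 140 cells, unadjusted on the left and after removal of group-by-plate means and a linear term in detected genes on the right. The pair Fth1 and Ftl1 has the highest value in both (0.41 and 0.37), and Clic1 with Txn1 is 0.21 on the left and 0.00 on the right.

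The genes whose levels followed each member most closely were sought among 2276 genes detected in 25% or more of all kept cells, by the adjusted correlation over 140 cells. For Clic1 they were Fcgr1 (0.39), the high-affinity receptor for immunoglobulin G, Ucp2 (0.35), a mitochondrial carrier, Dbi (0.35), the acyl-CoA binding protein, Golt1b (0.34) and Tpm3-rs7 (0.33). For Txn1 they included Sf1 (0.27), a splicing factor, Dhx32 (0.27), Eed (0.27), a subunit of Polycomb repressive complex 2, and Ctsf (0.27), a lysosomal protease. Picked as the highest, these values lie within the upper 5% of all genes by choice, which began at 0.18 for Clic1 and 0.17 for Txn1. None was strong. Ucp2 was also lower in dosed cells, by -1.36 at the low and -1.35 at the high dose, whereas Fcgr1 differed by -1.16 and -0.26. Among the genes like Txn1, Dhx32 was higher in low-dose than in PBS cells, by 1.09. By whole gene span, introns included, Dhx32 overlaps Bccip, and Sf1, Eed and Ucp2 also overlap other genes. Whether exons are shared was not examined for these genes, so their values remain uncertain.

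The closest genes of the other members were of several kinds. Prdx1 went with the ribosomal protein Rpl4 (0.40), the translation factor Eif5a (0.40) and Nop10 (0.38), a part of the box H/ACA ribonucleoproteins. Gpx1 went with Snx32 (0.29), Clic1 (0.29) and Tpd52 (0.28), and Sod1 with Smu1 (0.36), Ost4 (0.34) and Trem2 (0.33), the microglial lipid receptor. Rpl4, Snx32, Smu1 and Ost4 overlap other genes by whole gene span, and shared exons were not examined. Fth1 went with Tmsb4x (0.44), which encodes thymosin beta 4, Mir692-1 (0.42) and cyclophilin A, Ppia (0.39). Ftl1 went with Mir692-3 (0.90), Mir692-2 (0.90) and Mir692-1 (0.72), rows whose sequence matches the Ftl1 transcript, so these values compare copies of 1 sequence.

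The differences of the 7 members are given beside those of all genes compared. For low-dose minus PBS cells their median difference was -0.30, 4 of 7 were lower, where 64.7% of the 4806 genes compared were below 0 with a median of -0.18, and 2 members (Clic1 and Txn1) were lower by 1 or more, against 5.70% of genes. For high-dose minus PBS cells the median was -0.97, 6 of 7 were lower where 81.4% of genes were, with a median of -0.43, and 3 members (Clic1, Txn1 and Sod1) were lower by 1 or more, against 14.9% of genes. For high-dose minus low-dose cells the median was -0.39 and 4 of 7 were lower where 72.0% were, with a median of -0.24, and only Prdx1 was lower by 1 or more, against 6.80%. No member was higher by 1 or more in dosed than in PBS cells, which 0.624% of genes were at the low and 0.0832% at the high dose. Since the first of these contrasts was used to pick Clic1 and Txn1, nothing is read from these counts. Lower by 1 or more with 1 sign on all 3 plates were Clic1 and Txn1 at the low dose, where 4.93% of genes were, and Clic1, Txn1 and Sod1 at the high dose, where 13.4% were. All 7 genes passed the filter of 25% of cells, 6 of them in each group and Sod1 in PBS and low-dose cells only.

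The wider pathways were followed by lists of related genes, each counted over the members detected in 10% or more of all kept cells. Of the 8242 genes that pass the same filter, 62.6% were lower at the low dose and 3.37% by 1 or more, and 78.9% were lower in high-dose cells and 8.98% by 1 or more. Their median differences were -0.11 and -0.29. The lists are short, and nothing is called particular to one of them. Of 11 measured genes of the thioredoxin system, 9 were lower in low-dose than in PBS cells and none by 1 or more, and 10 were lower in high-dose cells, 2 of them by 1 or more. These were Txnip, which binds and inhibits thioredoxin (-1.17 at the high dose, with -1.68, -0.80 and -1.04 by plate), and Txndc5, a thioredoxin-like enzyme of the endoplasmic reticulum (-1.24, with -1.62, 0.07 and -2.35). The list medians were -0.46 and -0.44. Txndc17, the most abundant of the list in mean FPKM, differed by -0.88 and -0.73, and the mitochondrial thioredoxin Txn2 by -0.24 and -0.15. Txnip and Txndc5 share exons with other gene models, so their values are uncertain.

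Of the 5 other peroxiredoxins, 3 were lower at the low dose and 5 in high-dose cells, and 3 of them by 1 or more at the high dose, where 62.6%, 78.9% and 8.98% of genes were. Prdx3, the mitochondrial form, differed by 0.07 at the low and -1.18 at the high dose, and Prdx4, the form of the secretory pathway, by 0.00 and -1.199. Prdx5 differed by -0.66 and -1.10, and its exons overlap Trmt112. Prdx2, a cytosolic form, differed by -0.27 and -0.95, and its exons overlap Rnaseh2a. The 3 were lower in high-dose than in PBS cells on each plate. Mean FPKM of Prdx3 was 31.1 in high-dose and 178 in PBS cells, while Prdx4 stood at 90.7 in low-dose and 28.8 in PBS cells despite the difference of 0.00 on the log scale. The list median was -1.10 for high-dose minus PBS cells, beside -0.29 over the genes under the same filter.

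Of 12 measured genes of the glutathione system, 8 were lower at the low dose and 11 in high-dose cells, with 1 and 2 lower by 1 or more, beside 62.6% and 78.9% of genes lower and 3.37% and 8.98% by 1 or more. Gpx4, the peroxidase that protects membrane lipids, differed by -1.06 at the low and -1.40 at the high dose, with 0.12 and 0.07 on plate 3. Gsr, which regenerates glutathione, differed by -0.41 and -1.30 and had a mean of 1.23 FPKM in high-dose against 42.96 in PBS cells. Glrx3 and Gstp1, the other abundant members, differed by 0.38 and 0.15 at the low and 0.33 and -0.39 at the high dose. Among 5 genes that handle superoxide and its products, 1 was lower at the low dose and 4 in high-dose cells, where 62.6% and 78.9% of genes were, none by 1 or more. The copper chaperone Atox1 was the most abundant, at 588 FPKM with PBS, 585 with the low and 842 with the high dose. Park7 differed by 0.91 and -0.01, and catalase (Cat) by -0.32 and -0.54.

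Of 14 measured genes of the Nrf2 pathway and its targets, 6 were lower at the low dose and 11 in high-dose cells, 3 of these by 1 or more, where 62.6%, 78.9% and 8.98% of genes were. These were Sqstm1, an autophagy receptor (-1.199), and 2 enzymes of the pentose phosphate pathway, Taldo1 (-1.29) and Tkt (-1.59). Each was lower in high-dose than in PBS cells on all 3 plates, though Sqstm1 and Tkt share exons with other genes. Hmox1, which breaks down heme and is a known Nrf2 target, differed by 0.04 at the low and 0.29 at the high dose.

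Among 16 measured genes of iron handling, 10 were lower at the low dose and 14 in high-dose cells, 1 in each by 1 or more, beside the 62.6% and 78.9% of genes that were lower and 3.37% and 8.98% by 1 or more. Slc11a1, the iron transporter of phagosomes, differed by -1.01 at the low and -0.84 at the high dose and was lower on each plate. Hfe, which tunes iron uptake, differed by -0.94 and -1.25, also lower on each plate. The iron chaperone Pcbp1, whose exons overlap another gene model, differed by -0.81 and -0.68 and the iron-sulfur scaffold Iscu by 0.05 and -0.22. The list medians were -0.27 and -0.29.

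Of the 7 NADPH oxidase genes, 4 were lower at the low dose and 6 in high-dose cells, where 62.6% and 78.9% of genes were. At each dose 1 was lower by 1 or more, beside 3.37% of genes at the low and 8.98% at the high dose. Ncf1, the cytosolic subunit p47phox, differed by -1.16 at the low and -1.33 at the high dose, lower on each plate, but it shares exons with Gtf2ird2. The membrane subunit Cyba, at 857 FPKM with PBS, 898 with the low and 802 with the high dose, differed by 0.35 and -0.58, and the small GTPase Rac2 by -0.43 and -0.04. Of 7 measured genes of the chloride channel list, 6 were lower at each dose, beside the same shares of genes. Clns1a (-1.14) and Clcc1 (-1.38) were lower by 1 or more at the high dose, where 8.98% of genes were, both with exons shared with other genes. The lysosomal exchanger Clcn7 differed by -0.36 and -0.33. None of the 8 lists had a member higher by 1 or more in dosed than in PBS cells, which held for 0.364% of the genes under this filter at the low and 0.0607% at the high dose. The neutrophil markers, none of which is in the oxidase list, had a median summed level of 8.36 FPKM with PBS, 5.30 with the low and 0.220 with the high dose. Their highest sums in a cell were 82911, 126781 and 82013 FPKM. Any part of neutrophil transcripts in these differences was not tested.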

How the data were processed

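The authors deposited FPKM values, scaled to gene length and to the assigned reads of each cell, for 55364 genes and 144 cells. The submitters' processing notes name STAR 2.7.2b, featureCounts 1.6.1, cutadapt 1.16, Trimmomatic 0.36 and Trim Galore 0.4.4, with the genome GRCm38.p6, also called mm10. How they were set, and whether strand was used, is not given in the sources used here. No columns of other samples were used. Per the labels' protocols, cDNA of each lysed cell was made and amplified without named molecular identifiers, so reads are not independent molecules.

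The 7 genes and the lists around them were chosen with earlier results of these data known. Cells were kept from 1000 detected genes (FPKM from 1) upward. Levels are means of log2(FPKM + 1), differences are differences of such means, pooled and by plate, and lower by 1 or more means a difference of -1 or less. Such differences understate the change of low genes. Named list genes were the 3 highest in mean FPKM and those with a difference of 1 or more against PBS and 1 sign on all plates. Genes counted in the wider comparison reached an FPKM of 1 in at least 25% of the cells of any group. FPKM times length gave the reads per cell, since the most frequent positive value marks 1 read. A median of 53.1% of values were whole reads, so no count test was used. Shares carry exact Clopper-Pearson 95% intervals for counting error. Each group was 1 sample, so no p-value was computed. Calculations were tested on simulated data. Python 3.11.15, numpy 2.4.6, pandas 2.3.3, scipy 1.17.1 and matplotlib 3.10.9 were used. Sequences came from RefSeq promoters on GRCm38.p6 and from GENCODE M21 transcripts. Of the 55364 gene IDs, 55104 were in GENCODE M21, 54784 with the same coordinates. Protein sequences were not used here. One of the genes most like Txn1 and one microglial marker are not reported here.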

Additional observations from a re-analysis of the deposited data

How the results depend on the processing

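The differences of the 7 genes and their medians were recomputed under 17 alternatives for the cell filter, pseudocount, scaling, detected genes, plates, rod cells and gene copies. Shares of cells and correlations were recomputed under fewer of these, and the values of list genes and of strata under none. The 2 on near-identical copies and on rescaling without the mitochondrial DNA copy on chromosome 1 were chosen after seeing the data. Clic1 kept its sign under all 17 at both doses, from -3.05 to -0.65 at the low and from -2.83 to -0.75 at the high dose. Txn1 kept its sign under all 17 at the low dose (-2.82 to -0.95) and under 16 at the high dose, where the log2 ratio of mean FPKM was 0.14, the opposite direction, carried by 3 cells with 84.6% of the summed FPKM.

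The median difference of the 7 genes for low-dose minus PBS cells (-0.30) was 0.17 as a log2 ratio of mean FPKM and 0.054 in a common range of detected genes. For high-dose minus PBS cells (-0.97) it was 0.10 as such a ratio, -0.22 in cells with at least 2000 detected genes, -0.36 after adjustment for detected genes, -0.30 in the common range and -1.67 without plate 2. For high-dose minus low-dose cells (-0.39) it was -0.96 in the common range. The causes were not tested. The median over all genes compared also shifted: after adjustment it was 0.06 at the low and -0.03 at the high dose, in place of -0.18 and -0.43. No paired analysis was possible because the numbers of the cells within a group only name wells and no result comes from a test. Limits are 1 sample a group, unknown animals, and dose joined with age and well.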
